A study of Saccharomyces cerevisiae with 7 samples.

Results

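The BUD23 and ARE1 region is a stretch of 16001 bp on chromosome III of budding yeast, from position 208000 to 224000 in the coordinates of the authors' maps. It is defined by its position, as the stretch around the divergent genes BUD23 and ARE1. Within it, 9 Spo11 hotspots were called, of 2806 in the genome and 64 on chromosome III. The strongest of them lay between BUD23 and ARE1 and ranked 9 of 2806.

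Spo11 is the topoisomerase-like protein that makes the DNA double-strand breaks of meiotic recombination. A pair of Spo11 molecules cuts the opposite strands with a short stagger, and each molecule remains bound to the 5′ end that it has made until the nuclease pathway that needs Sae2 releases it. In budding yeast most breaks form in hotspots, which mainly coincide with the nucleosome-depleted promoters of genes. BUD23 encodes a methyltransferase of the small-subunit ribosomal RNA and ARE1 an acyl-CoA:sterol acyltransferase that makes steryl esters. They are transcribed away from each other, so that a single intergenic region holds the promoters of both.

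The covalent complexes of Spo11 were mapped by CC-seq, which recovers DNA fragments through the protein bound to them and records the nucleotide and strand of each bound 5′ end as a hit. All libraries came from meiotic SK1 cells that lacked SAE2 (sae2∆), 6 h into meiosis, so that the complexes had not been processed. SPO11+ cells were represented by 5 biological replicates, of which the fifth has 2 technical replicates that were summed. The control was 1 library of spo11-Y135F sae2∆ cells, in which Spo11 lacks the tyrosine with which it attacks DNA. Both genotypes therefore carried the sae2 deletion, and no cells with Sae2 were included. The labels of replicate 5 say sae2, whereas the names of its maps say WT, and it was taken as sae2∆. The SPO11+ replicates held between 3177210 and 8564017 hits and the spo11-Y135F library held 2326054. Hits were divided by the total of their library and multiplied by 1000000 to give HpM, hits per 1000000. This is the share of a library's hits at a site and not the number of breaks per cell. According to the paper, Spo11 breaks do not form in spo11-Y135F, so that its HpM are shares of background hits. Ratios between the genotypes thus compare shares and not numbers of breaks. Since a single control library allows no exact permutation p below 0.167, comparisons with spo11-Y135F are given as values with the range of the replicates and a 95% Wilson interval, which covers counting error only.

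The genome build of the authors' maps includes constructs inserted on chromosome III at HIS4 and LEU2, and the gene table used here has other coordinates on that chromosome. Genes were therefore placed by a single shift of the table, of 4260 bp, which put the highest share of chromosome III hits outside the region (68.6%, against 22.2% without a shift) into intergenic regions that hold a promoter. The hits to the left of the region alone gave 4190 bp and those to the right alone 4260 bp. Gene borders are thus approximate, and the difference between these values is not a bound on their error. Hotspot positions are read directly from the maps. So placed, the region touched 12 genes and held 10 of them whole.

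The region received many more hits than its length would give. It held 6302, 6754, 6882, 6642 and 7543 HpM in replicates 1 to 5, a mean of 6825 ± 456 (SD, n = 5), from between 20024 and 57845 hits per replicate. The lowest and highest replicates differed by far less than either differed from the spo11-Y135F library, which had 1388 HpM there from 3229 hits. Hit density in the region was 5.16 ± 0.35 times that of the rest of the genome in SPO11+ cells (range 4.76 to 5.70) and 1.04 times in spo11-Y135F. The replicates placed their hits on the same nucleotides. Over the 32002 combinations of position and strand in the region, the 10 pairs of replicates had Pearson's r between 0.927 and 0.983, as a description across nucleotides, which are not independent. The mean SPO11+ map and the spo11-Y135F map had r of 0.0137.

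To call hotspots, the mean SPO11+ map was smoothed with a Hann window (100 bp on each side), and a hotspot was any run of 25 bp or more in which the smoothed value exceeded its genome mean by a factor of 3, here 0.250 HpM per bp. The lowest summit among the 9 hotspots stood at 0.762 HpM per bp, in the hotspot between YCR050C and YCR051W. Among positions more than 100 bp from a hotspot, the highest smoothed value was 0.227 HpM per bp, at position 214541 in IMG1. That is the nearest position counted to the left of the hotspot between IMG1 and BUD23, so the value is not shown to be a separate peak. Together the hotspots covered 3144 bp and held 89.9% ± 0.84 (SD, n = 5) of the region's hits. In spo11-Y135F the same positions held 21.5% of the hits (Wilson interval 20.1 to 22.9%), close to the 19.6% of the length that they make up. The hotspots were called on the mean of the same SPO11+ replicates, so that a high share in these replicates follows from the choice. The share of hits in hotspots over the whole genome is not given here. The region had 1 hotspot per 1778 bp, against 1 per 4284 bp in the genome as a whole.

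**Figure D1:**
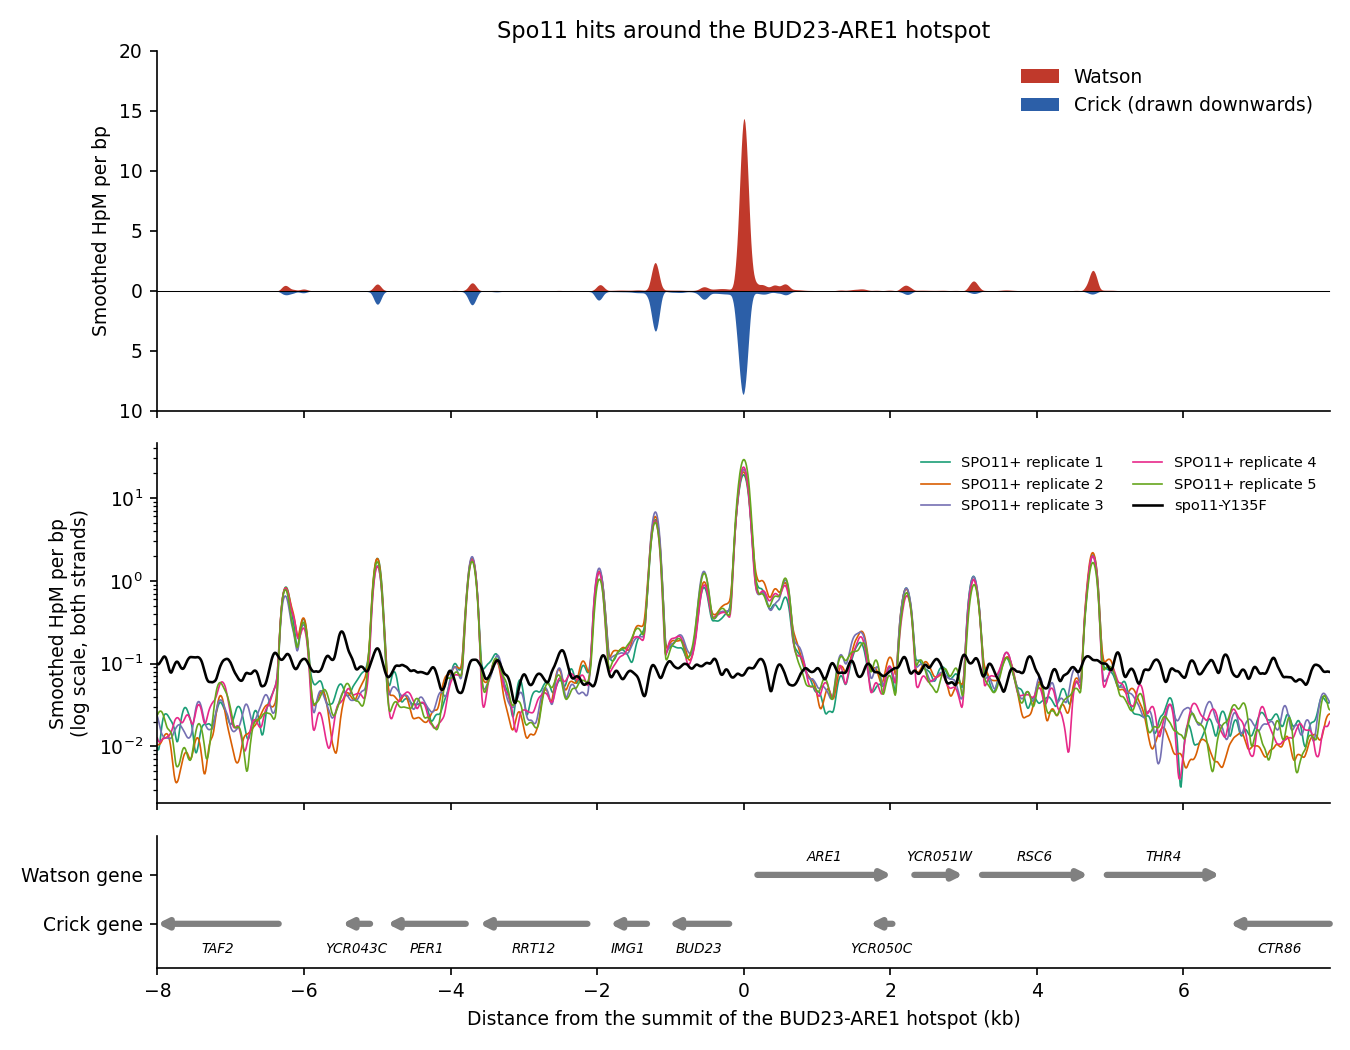
Smoothed HpM per bp in the region against the distance from the summit of the BUD23-ARE1 hotspot in kb. The upper panel has the mean of 5 SPO11+ replicates with Watson hits upwards and Crick hits downwards on a linear scale, the middle panel has both strands of each library on a log scale, and the lower panel has the genes as placed by the shift of the gene table. The 5 replicates rise together at the 9 hotspots, while the spo11-Y135F library stays near its genome density of 0.0832 HpM per bp.

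When each replicate was called alone, all 9 hotspots were found in 5 of 5 replicates, in which 2720 to 2893 hotspots were called genome-wide. Of all 2806 hotspots, 88.9% were found in every replicate, so that this recovery was the rule. The same procedure found 24 clusters in the spo11-Y135F library and 0 in the region. All 9 hotspots had more HpM in 5 of 5 SPO11+ replicates than in spo11-Y135F, as did 99.8% of the 2806 hotspots, so that this count says nothing particular to the region. By rank, 8 of the 9 belonged to the upper 50% of hotspots in the genome. All 9 summits fell in intergenic regions, 7 of them between genes read in the same direction and 2 between divergent genes. Of the 2742 hotspots on the other chromosomes, 92.7% had their summit outside reading frames and 91.5% in an intergenic region of one of these kinds.

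The BUD23-ARE1 hotspot held most of the region's hits in SPO11+ cells. It spanned 1319 bp, from 215350 to 216668, with its summit at 216002. It held 3543, 3916, 4016, 4081 and 5042 HpM in replicates 1 to 5, a mean of 4120 ± 556 (SD, n = 5). Replicate 5 was the highest and replicate 1 the lowest, while the other three lay close together. The spo11-Y135F library had 111.8 HpM from 260 hits, which is 36.9 times less than the SPO11+ mean. Its density was 0.0847 HpM per bp within the hotspot and 0.0832 over the genome. In SPO11+ cells the hotspot had 3.12 HpM per bp. It accounted for 60.2% ± 4.18 of the region's hits on 8.24% of its length, whereas in spo11-Y135F it accounted for 8.05% (Wilson interval 7.16 to 9.04%). Its borders were called on the SPO11+ map, so that these shares describe the hotspot and are no test of it. Of all hits in the genome, 0.412% fell in this hotspot.

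The technical replicates of replicate 5 differed at this hotspot. Its first technical replicate had 5801 HpM in the BUD23-ARE1 hotspot (95% Wilson interval 5682 to 5924, 8758 hits) and its second 4485 (4395 to 4577, 9238 hits). These intervals did not overlap, although both are labelled as the same biological replicate. At the other 8 hotspots the intervals of the technical replicates overlapped, for example with 697 and 645 HpM at the hotspot between IMG1 and BUD23. Those 8 had only 154 to 1328 hits per technical replicate, so that their intervals are relatively wider. The share of all 2806 hotspots with such a difference was not computed, and it is not shown to be particular to the BUD23-ARE1 hotspot. Without replicate 5, the mean of the BUD23-ARE1 hotspot was 3889 HpM.

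The second strongest hotspot of the region lay on the other side of BUD23, between IMG1, which encodes a mitochondrial ribosomal protein, and BUD23. It spanned 279 bp, from 214642 to 214920, ranked 206 in the genome and was separated from the BUD23-ARE1 hotspot by 429 bp. Its values were 711.3, 783.3, 858.7, 675.6 and 666.8 HpM, a mean of 739 ± 81.0 (SD, n = 5), against 19.8 HpM in spo11-Y135F. Replicate 5, the highest at BUD23-ARE1, was thus the lowest here. The BUD23-ARE1 hotspot exceeded it 4.98, 5.00, 4.68, 6.04 and 7.56-fold, on average 5.65 ± 1.19-fold or 2.48 ± 0.28 on the log2 scale. It was the higher in 5 of 5 replicates. Since both hotspots were picked by their order in the mean of the same replicates, these ratios are a description and no test is given. Since the BUD23-ARE1 hotspot is also much the wider, the ratio of HpM per bp over the called widths was only 1.20, and that of smoothed summit heights 4.08.

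Together the other 8 hotspots held 2018 ± 142 HpM (SD, n = 5), and the BUD23-ARE1 hotspot held between 1.72 and 2.75 times that sum in the 5 replicates. Excluding the IMG1-BUD23 hotspot, they ranged from 110 to 269 HpM on average, and from 652 to 1411 in genome rank.

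The hotspots further to the left lay among genes on the Crick strand. The one between TAF2, which encodes a subunit of the general transcription factor TFIID, and the uncharacterised YCR043C had 157 ± 16.5 HpM (SD, n = 5) and ranked 1083. Next to it, the YCR043C-PER1 hotspot had 204 ± 20.6 HpM and ranked 853, while the PER1-RRT12 hotspot had 232 ± 10.6 HpM and ranked 746. PER1 encodes a protein of the endoplasmic reticulum that remodels the lipid of GPI anchors, and RRT12 a protease-like protein of the spore wall. With a coefficient of variation of 4.57% over the replicates, the PER1-RRT12 hotspot was the most even of the 9, against a median of 13.2% over all hotspots. At BUD23-ARE1 it was 13.5%, above the median of 10.6% over the hotspots ranked 1 to 100. The RRT12-IMG1 hotspot had 160 ± 18.0 HpM and ranked 1070.

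To the right lay 3 weaker hotspots. The one beyond the 3′ end of ARE1, between YCR050C and YCR051W, had 110 ± 10.5 HpM (SD, n = 5), the lowest of the region, and ranked 1411. YCR050C is a short reading frame that overlaps the end of ARE1, and YCR051W encodes a protein with ankyrin repeats. The hotspot before RSC6, the gene of a subunit of the RSC chromatin remodeller, had 146 ± 13.3 HpM and ranked 1158. That before THR4, which encodes threonine synthase, had 269 ± 24.9 HpM and ranked 652. In spo11-Y135F these 8 hotspots had between 17.2 and 38.7 HpM, from 40 to 90 hits each, below every SPO11+ value of the same hotspot.

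**Figure D2:**
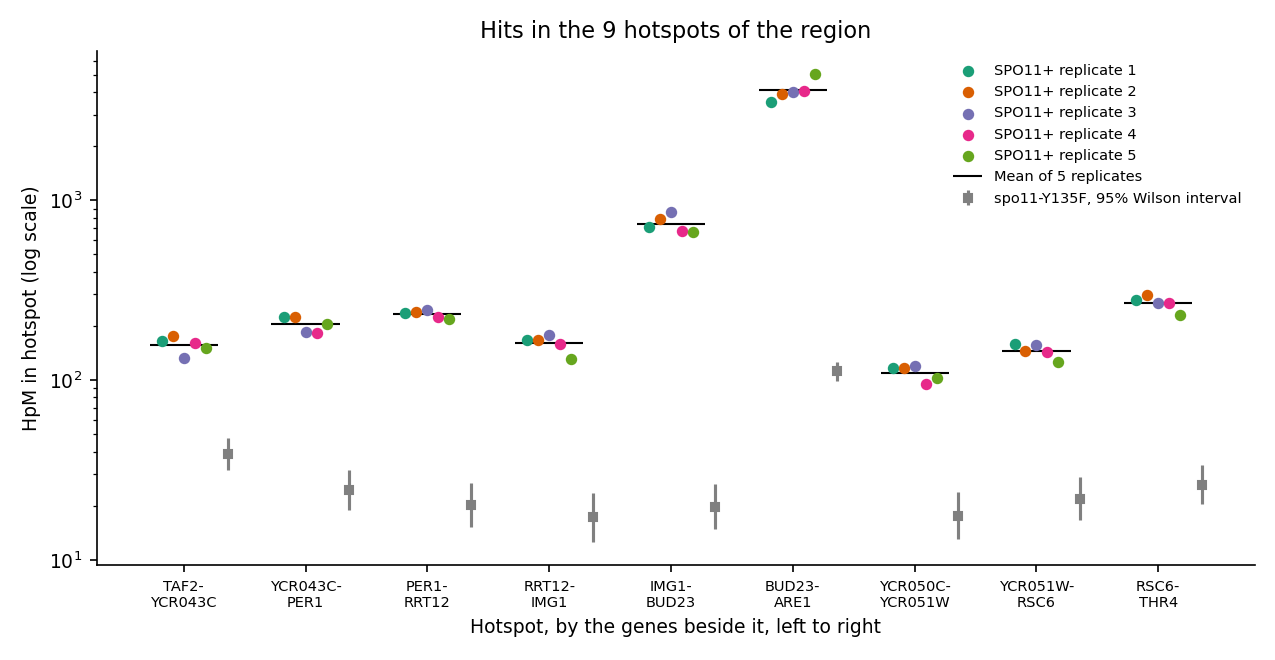
HpM in each of the 9 hotspots on a log scale, from left to right along the chromosome, with a point for each SPO11+ replicate, a line at the mean of the 5 replicates and a square for the spo11-Y135F library with its 95% Wilson interval. The BUD23-ARE1 hotspot, at 3543 to 5042 HpM, lies above every other hotspot of the region in each replicate.

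Among all hotspots the BUD23-ARE1 hotspot stood near the top, but its exact place was not resolved by the replicates. It was the strongest of the 64 hotspots on chromosome III, and took ranks 11, 10, 9, 8 and 7 when replicates 1 to 5 were called alone. By smoothed summit height, 22.9 HpM per bp, it ranked 4. The hotspots directly above it lay between YMR265C and RSN1 on chromosome XIII (4564 ± 464 HpM, SD, n = 5), between ERG1 and ATF2 on chromosome VII (4347 ± 461) and between SRB2 and NCP1 on chromosome VIII (4263 ± 569). Each of them was exceeded by the BUD23-ARE1 hotspot in 1 of 5 replicates. Directly below it came PEX25-CAR1 on chromosome XVI (3807 ± 347), FRS2-GAT1 on chromosome VI (3752 ± 255) and LEU4-MET4 on chromosome XIV (3592 ± 235), which it exceeded in 3, 4 and 5 of 5 replicates. The neighbours were chosen by their order in the mean of the same replicates, and none of these 6 comparisons passed the threshold of 0.05 (exact two-sided sign-flip permutation tests, p between 0.0625 and 0.375, Benjamini-Hochberg adjusted between 0.25 and 0.375). With 5 replicates none could, so that these neighbours are not shown to be equal either.

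**Figure D3:**
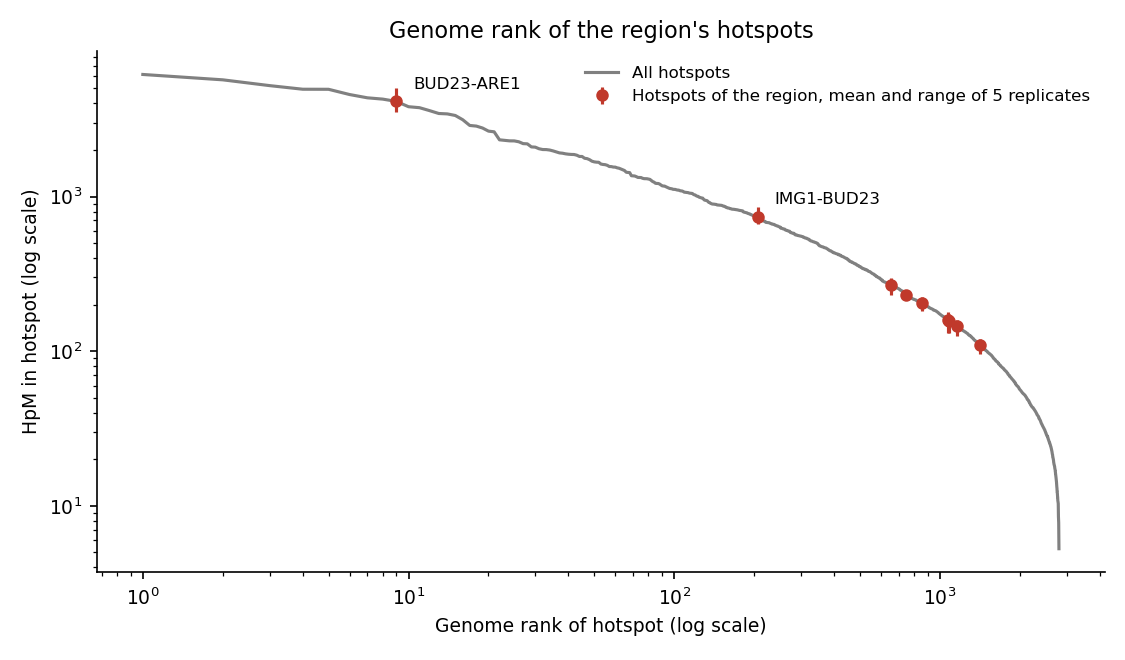
HpM of all 2806 hotspots against their genome rank, both on log scales, as a line, with the 9 hotspots of the region as points that carry the range of the 5 replicates. The BUD23-ARE1 hotspot is at rank 9 and the IMG1-BUD23 hotspot at rank 206.

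The hits of the BUD23-ARE1 hotspot were concentrated in a narrow core flanked by broad shoulders. Its called width was 7.05 times the median of all hotspots, 187 bp, and lay at the 99.6th percentile. Its width at 50% of the summit height was 145 bp, near the median of 141 bp, and the central 90% of its hits lay within 654 bp. The 301 bp within 150 bp of the summit held 3495 ± 531 HpM (SD, n = 5), which is 84.9% of the hotspot. The left shoulder, 502 bp long, held 272.5 ± 32.5 HpM or 6.62%, and the right shoulder, 516 bp long, 352 ± 41.5 HpM or 8.53%. With a Hann window reaching 15 bp to each side, the core resolved into 4 sub-peaks, at 70 and 41 bp to the left of the summit and 8 and 38 bp to the right of it. Their heights were 15.2, 29.6, 44.4 and 26.2 HpM per bp, with the highest next to the summit.

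The shoulders reached into both genes. The intergenic region between BUD23 and ARE1, 383 bp long as placed, held 86.0% of the hotspot, at 9.25 ± 1.37 HpM per bp against 2.51 ± 0.28 between IMG1 and BUD23 (SD, n = 5). The 5′ part of the BUD23 reading frame, 456 bp, held 6.10% of the hotspot, and that of ARE1, 480 bp, held 7.89%. Over the whole reading frames, BUD23 had 311 ± 34.8 HpM (range 265 to 347) and ARE1 451 ± 50.0 (range 378 to 518), against 77.8 and 148 in spo11-Y135F. Per length this was 0.376 HpM per bp in BUD23 and 0.246 in ARE1, the highest densities among the reading frames of the region. IMG1 followed with 0.171, while the part of CTR86 within the region had the lowest, 0.0176. These shares and densities of reading frames and intergenic regions were computed at the shift of 4260 bp only. The summit lay 197 bp upstream of the start of BUD23 and 187 bp upstream of that of ARE1. Under the other estimates of the shift these distances ranged from 197 to 267 bp and from 117 to 187 bp.

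Cleavage within the core fell on a small number of nucleotides. A site is defined here as a Watson position together with the Crick position 1 bp above it, since hits on both strands of the hotspot matched best at this offset. The strongest site was at Watson position 216010, 8 bp to the right of the summit, with 223, 237, 260, 295 and 378 HpM in replicates 1 to 5, a mean of 278.6 ± 62.0 (SD, n = 5). It made up 6.76% of the hotspot and ranked 19 among the sites of the genome. The spo11-Y135F library had 0 hits there, which allows up to 1.29 HpM (3 hits of that library, counting error only).

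The next strongest sites were at Watson positions 216040 (230.9 ± 30.3 HpM, SD, n = 5), 215990 (223.8 ± 60.6), 216009 (195.5 ± 44.2) and 215961 (169.4 ± 43.6), and spo11-Y135F had 1 hit at the first of these and 0 at the others. From left to right these 5 sites were spaced by 29, 19, 1 and 30 bp. Together they held 26.7% of the hotspot, the 10 strongest sites held 40.2% and 16 sites were enough for 50%. Of the neighbours in genome rank, YMR265C-RSN1, ERG1-ATF2, SRB2-NCP1 and PEX25-CAR1 were similar, with 39.3 to 43.3% in 10 sites and 15 to 18 sites for 50%. LEU4-MET4 had 32.7% and 24 sites, and FRS2-GAT1 was spread most widely, with 25.2% and 40 sites. At 50% height 5 of these 6 neighbours were wider than the BUD23-ARE1 hotspot, with 212 to 256 bp, while SRB2-NCP1 was slightly narrower.

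**Figure D4:**
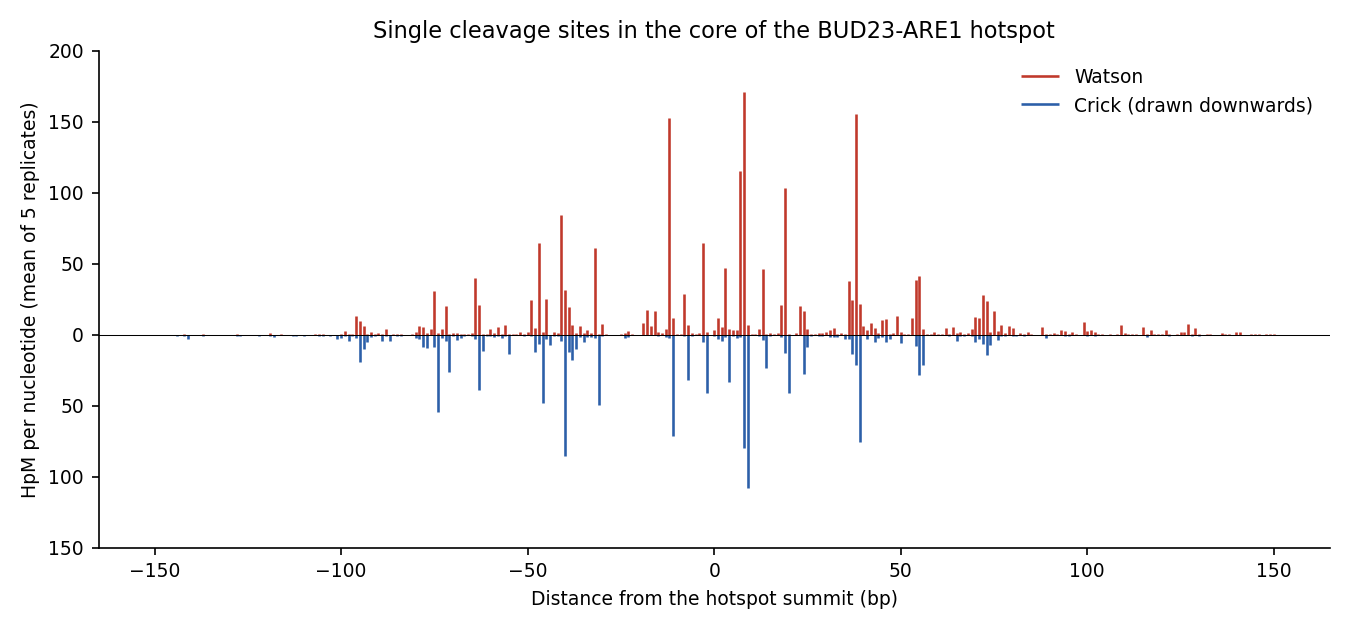
HpM at single nucleotides of the core of the BUD23-ARE1 hotspot, as the mean of 5 SPO11+ replicates, against the distance from the summit in bp, with Watson hits upwards and Crick hits downwards. Most tall Watson lines have a Crick line 1 bp to their right, and the tallest pair, 8 bp to the right of the summit, has 171 HpM on Watson and 108 on Crick.

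Watson and Crick hits in the BUD23-ARE1 hotspot were correlated at an offset of 1 bp, with Pearson's r across sites of 0.913, 0.927, 0.914, 0.941 and 0.894 in replicates 1 to 5, from 311 to 593 sites. This offset gave the highest r in 5 of 5 replicates. Without an offset, r fell to 0.292 ± 0.030 (SD, n = 5), and the highest r at any offset other than 1 bp, up to 20 bp, was 0.412. In the spo11-Y135F library only 8 Watson positions had a partner hit 1 bp above them on Crick, and no r was computed. On a log2(HpM + 1) scale the mean r at an offset of 1 bp was 0.820 rather than 0.918.

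Although paired, the strands were not hit equally. In the BUD23-ARE1 hotspot, Watson hits made up 60.3% ± 3.73 (SD, n = 5) of all hits, from 54.1 to 64.0%, and were in excess in 5 of 5 replicates. In spo11-Y135F the Watson share was 53.1% (Wilson interval 47.0 to 59.1%). The strongest site had 171 HpM on Watson and 108 on Crick, with Watson higher in 4 of 5 replicates. At the next 3 sites Watson was higher in 5 of 5, with 155 against 75.4 HpM at 216040, 153 against 70.9 at 215990 and 116 against 79.9 at 216009. At 215961 the strands were near equal, at 84.1 and 85.3 HpM, and Watson was higher in 3 of 5 replicates.

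Over all sites of at least 10 HpM, the same strand was higher in 5 of 5 replicates at 67 of 98 sites of the region (68.4%), against a background of 56.6% over the 12194 such sites of the genome. In the BUD23-ARE1 hotspot this held for 35 of 54 sites (64.8%), Watson being the higher at 27 and Crick at 8. Over the whole genome Watson and Crick were about evenly represented, with 3558 and 3339 of 6897 such sites. No test was made of these counts, because sites of one hotspot share their libraries and are not independent. The background was also not matched for the strength of the sites, and 54 of the 98 lay in the BUD23-ARE1 hotspot. The higher share is therefore not shown to be a trait of the region.

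The preferred strand changed across the BUD23-ARE1 hotspot. Its left shoulder, over BUD23, had a Watson share of 37.2% ± 5.34 (SD, n = 5), its core 61.2% ± 4.63 and its right shoulder, over ARE1, 68.4% ± 6.37. In spo11-Y135F these parts held 108, 55 and 97 hits, with Watson shares of 55.6% (Wilson interval 46.2 to 64.6%), 56.4% (43.3 to 68.6%) and 48.5% (38.8 to 58.3%). These intervals overlap, so that no order could be read at this depth. Watson hits were thus in the minority in the left shoulder and in the majority in the right shoulder.

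The same order held for the hotspots on either side. To the left, Watson shares were 33.9% ± 1.73 (SD, n = 5) at YCR043C-PER1, 36.2% ± 3.79 at PER1-RRT12 and 40.2% ± 4.45 at IMG1-BUD23, all below 50% in 5 of 5 replicates. To the right they were 63.9% ± 4.74 at YCR050C-YCR051W, 78.5% ± 2.76 at YCR051W-RSC6 and 85.9% ± 1.32 at RSC6-THR4, all above 50% in 5 of 5. The remaining hotspots on the left were mixed, with 52.9% ± 3.10 at TAF2-YCR043C, where Watson was higher in 4 of 5, and 41.1% ± 6.06 at RRT12-IMG1, where it was higher in 1 of 5.

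With the BUD23-ARE1 hotspot, 4 of 9 hotspots were thus above 50% in every replicate, against a background of 35.0% of all hotspots, and 3 of 9 were below 50% in every replicate, against 31.7%. Each of these 7 hotspots reached p = 0.0625 (exact two-sided sign-flip permutation test of the log2 ratio of Watson to Crick, the smallest p that 5 replicates allow, 0.0804 after Benjamini-Hochberg adjustment over the 9 hotspots). For the other two p was 0.125 in the same exact permutation test. In spo11-Y135F Watson shares of the 9 hotspots ranged from 42.6 to 57.4%, and the Wilson interval of each included 50%.

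**Figure D5:**
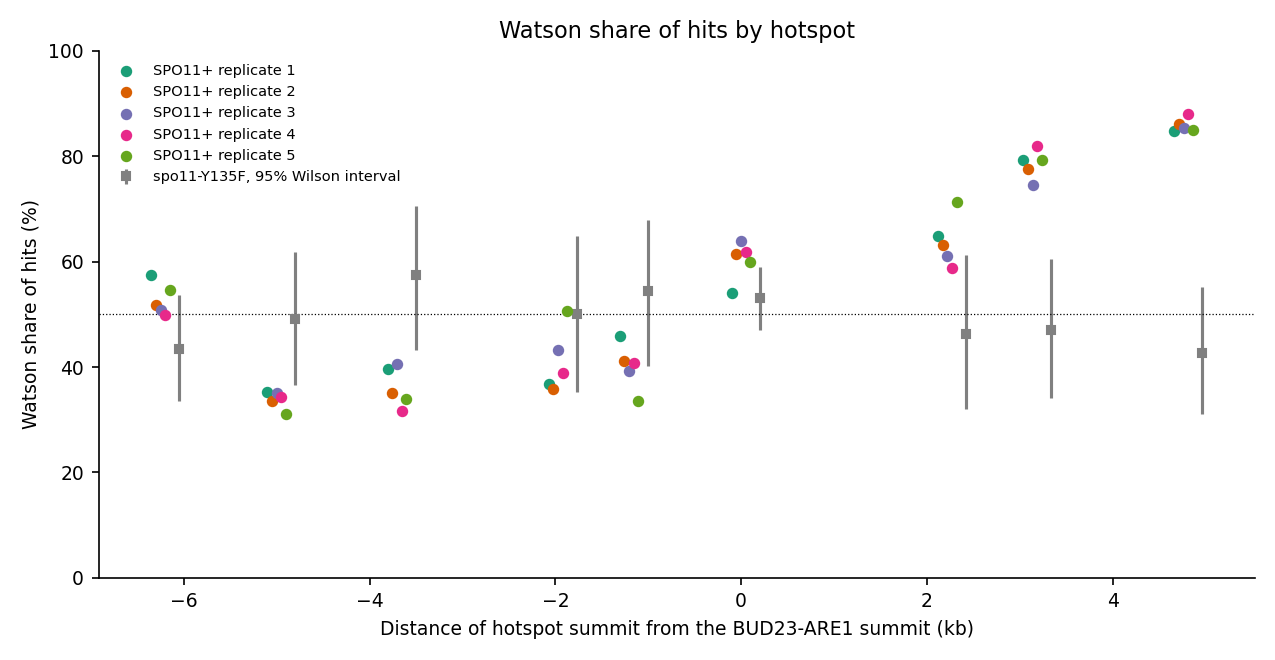
Watson share of the hits in each hotspot in percent against the distance of its summit from that of the BUD23-ARE1 hotspot in kb, with a point for each SPO11+ replicate, a square with a 95% Wilson interval for spo11-Y135F and a dotted line at 50%. SPO11+ shares lie mostly below 50% on the left and rise to between 84.7 and 88.0% at the rightmost hotspot, RSC6-THR4.

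Pooled over all hits of the region outside the BUD23-ARE1 hotspot, the Watson share on its left was 43.3, 39.8, 41.0, 40.0 and 37.9% in replicates 1 to 5. On its right it was 73.9, 76.1, 71.2, 74.8 and 76.0%. The sides did not overlap, and differed by 34.0 ± 3.52 percentage points (SD, n = 5). In the spo11-Y135F library the left share was 50.9% (Wilson interval 48.3 to 53.4%) and the right share 49.5% (46.9 to 52.1%). The difference was also present between the hotspots, where the Watson share was 41.8% ± 1.71 on the left and 66.8% ± 3.47 on the right, against 51.1 and 50.0% in spo11-Y135F. The comparison of the sides was added after the strand shares had been seen, and no p is given for it.

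In this region the side of the hotspot and the direction of the genes coincide. All hotspots on the left lie upstream of a gene read from the Crick strand, and all on the right upstream of a gene read from the Watson strand (YCR050C, a Crick reading frame, flanks one of these as well), so that position relative to the BUD23-ARE1 hotspot and gene direction cannot be told apart here. On the other 15 chromosomes, hotspots between 2 Crick genes had a median Watson share of 43.5% (interquartile range 35.3 to 50.2%, n = 643) and those between 2 Watson genes 57.3% (50.8 to 67.4%, n = 705). Hotspots between divergent genes had 50.3% (n = 1160). Around the 20 strongest hotspots of the genome, within 6000 bp to each side, the right side had the higher Watson share in 5 of 5 replicates at 12 and the left side at 3. The median difference was 6.01 percentage points. The 34.6 points around the BUD23-ARE1 hotspot were the largest of these 20 differences, followed by 25.2. These 20 hotspots were taken by rank and not matched for the direction of the genes around them. The largest difference is therefore not shown to be a trait of the BUD23-ARE1 hotspot.

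Outside its hotspots the region had far fewer hits per bp than inside them, where SPO11+ cells had 1.95 ± 0.15 HpM per bp (SD, n = 5). Between hotspots SPO11+ cells had 0.0534 ± 0.0021 HpM per bp (SD, n = 5), below the 0.0848 of the spo11-Y135F library. Since HpM are shares of a library, a lower share outside hotspots goes with a higher share inside them. The region was not poor against such stretches elsewhere. Subtracting the SPO11+ density of the whole genome outside hotspots lowered the BUD23-ARE1 hotspot, 1319 bp wide, only from 4120 to 4085 HpM. Per bp, that density is below the 0.0534 found between the hotspots here. Intergenic regions that hold a promoter, 9 of the 10 between genes of the region, held 81.6% ± 1.04 of its hits on 19.1% of its length, against 22.3% in spo11-Y135F (Wilson interval 20.9 to 23.7%). The remaining one, between the convergent ends of THR4 and CTR86, had 0.0157 ± 0.0057 HpM per bp. In spo11-Y135F it had 0.122, from 38 hits. To the right of the last hotspot, 3131 bp without a called hotspot had 0.0248 ± 0.0025 HpM per bp, against 0.0850 in spo11-Y135F.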

How the data were processed

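Spo11 CC-seq maps of 5 SPO11+ replicates (6 libraries) and 1 spo11-Y135F library, all sae2∆, were used. The authors aligned read pairs with bowtie2 to Cer3H4L2, used terminalMapper to place the 5′ end of read 1, which carries the protein, and filtered out rDNA, telomeres, retrotransposons and their long terminal repeats. Deposited maps of single libraries hold counts, unscaled, for each nucleotide of each strand, in which PCR copies cannot be told apart. The authors also deposited an average map in HpM, equivalent to RPM, which served only as an alternative. Its deposited Crick values are scores of the same scale, at positions 1 bp below those of the single maps.

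Hits were scaled to HpM over all 16 chromosomes, and 0 positions of the region were masked. Hotspots less than 200 bp apart were merged. A total of 6002 protein-coding genes of a RefSeq table (assembly R64) gave names and directions, and no coordinate of that table is given. Named were the genes covered by the region or next to its hotspots, the genes beside the 3 hotspots on each side in genome rank and the 5 strongest sites. The region and these lists were chosen with earlier results of these data known. Strands and hotspots were compared within each replicate. Replicates are labelled as biological, but separate cultures are not named, so p-values measure the spread between these libraries. Alternatives covered the caller, the scaling, background, the shift, strand filters and each replicate left out. Of 200 hotspots planted in simulated maps, 100% were found and 0 were called elsewhere. The planted hotspots were single, widely spaced peaks on a flat background and stood well above the threshold. Weak hotspots, merging, borders and shoulders were therefore not checked. Python 3.11.15, numpy 2.4.6, scipy 1.17.1, pandas 2.3.3 and matplotlib 3.10.9 were used. No genome sequence was used here.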

Additional observations from a re-analysis of the deposited data

How the results depend on the processing

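Of 104 alternative values over 11 results, 84 moved by less than the spread between replicates or within 1.5 times a count. These include the 50 values with a replicate left out. A further 20 moved more and 0 reversed. Only the Watson share, r and the difference between the sides could reverse, by crossing 50% or changing sign, so that this count says nothing about the other results. The following concern the BUD23-ARE1 hotspot unless stated. With a threshold of 2 times the mean it had 4971 HpM, rank 4 and a width of 2233 bp, and hotspots held 92.1% of the region's hits. With 5 times the mean its width was 1268 bp and that share 88.5%. Merging of hotspots less than 500 bp apart, which joins it to IMG1-BUD23, gave 4927 HpM, rank 6, 2027 bp and 90.9%. Hann windows reaching 50 and 200 bp gave widths of 1284 and 1405 bp. The width at 50% height was 145 bp and that of the central 90% of hits 654 bp. By HpM per bp it ranked 33. Its ratio to IMG1-BUD23 was 1.20 per bp and 4.08 by summit height. On the log2 scale, r at an offset of 1 bp was 0.820. A shift of the gene table larger by 100 bp left the same genes beside 5 of 9 hotspots. Outside all hotspots, the sides differed in Watson share by 25.0 percentage points, an alternative added after the data had been seen, as was the use of each technical replicate of replicate 5 alone.

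None of the 50 values with a replicate left out moved beyond these limits, and the HpM of the BUD23-ARE1 hotspot then ranged from 3889 to 4264. For the Watson share, r, the density and the difference between the sides, this was certain in advance. They are means over the replicates, which leaving out 1 replicate cannot shift by their SD. The HpM, the share in hotspots and the ratio were held nearly as tightly, so that these values are little check on them. No paired analysis was possible because the genotypes share only replicate number 1, the control being a single library. Comparisons of spo11-Y135F have no replicate check. Intervals cover counting error only.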
